A study of Homo sapiens with 6 samples.

Results

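The first steps of glucose use were examined through 8 genes: the hexokinases HK1, HK2 and HKDC1, the ADP-dependent glucokinase ADPGK, the isomerase GPI and the phosphofructokinases PFKL, PFKM and PFKP. They were taken by name from 26409 genes, and 101 of their annotated transcripts were in the table, from 1 for HKDC1 to 32 for PFKM. RNA was sequenced from SUM1315, an established cell line labelled as triple-negative breast cancer of mammary origin, with the genotype given as WT. The hypoxia group (3 libraries) spent 24 h at 1% oxygen in a modular chamber filled up with nitrogen and carbon dioxide, and the normoxia group (3 libraries) was labelled 24 h at 21% oxygen. Both groups grew in medium with serum, insulin and EGF, so that insulin was present in all libraries. By its title and design text, the study concerned ribosome production in low oxygen and the role of HIF1A. All results come from 1 cell line, and no label states that the replicates grew as separate cultures. The p-values therefore reflect variation among 6 libraries only, some or all of which may be technical.

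Hexokinases trap glucose in the cell as glucose 6-phosphate. HK1 is the widely expressed form and HK2 the form of insulin-responsive tissue and of many tumours, and both can bind the outer mitochondrial membrane. GPI converts glucose 6-phosphate to fructose 6-phosphate. Phosphofructokinase then adds a further phosphate in the step at which the flow through glycolysis is mainly controlled, as a tetramer built from muscle (PFKM), liver (PFKL) and platelet (PFKP) subunits. In low oxygen the factor HIF1A, bound to its partner ARNT, activates many glycolysis genes through sites with the core ACGTG or GCGTG.

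Promoter sequence is shown for HK2, the member with the largest difference between the groups, and for PFKL, a phosphofructokinase that was raised, because the HIF core can be looked for there. The sequences are from RefSeq on GRCh38.p14, plus strand, and capitals mark ACGTG or GCGTG on either strand. The first HK2 stretch (chr2:74833877-74833980) ends just before the start of HK2-201, the transcript that carried nearly all HK2 signal. The second (chr2:74834920-74835169) lies in the first intron of HK2-201 and just before the start of the shorter HK2-202. The PFKL stretch (chr21:44299803-44300050) ends just before the start of PFKL-201.
HK2 upstream: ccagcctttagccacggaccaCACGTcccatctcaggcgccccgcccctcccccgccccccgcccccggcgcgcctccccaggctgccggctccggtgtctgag
HK2 intronic start: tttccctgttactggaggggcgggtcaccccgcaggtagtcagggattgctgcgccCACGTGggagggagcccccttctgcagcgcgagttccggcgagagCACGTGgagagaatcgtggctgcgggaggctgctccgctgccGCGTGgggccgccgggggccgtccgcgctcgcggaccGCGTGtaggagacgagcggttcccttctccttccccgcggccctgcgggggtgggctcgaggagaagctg
PFKL upstream: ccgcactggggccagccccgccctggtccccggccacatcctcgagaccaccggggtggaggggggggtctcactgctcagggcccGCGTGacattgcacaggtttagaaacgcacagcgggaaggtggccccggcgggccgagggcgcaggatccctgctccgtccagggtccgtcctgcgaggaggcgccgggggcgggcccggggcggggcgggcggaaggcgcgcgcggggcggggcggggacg
Each RefSeq start was searched over the 250 bases before it for ACGTG and GCGTG on both strands, and CACGTG counts as a match on each strand. Of 35116 such windows, 18.5% held ACGTG, 32.2% held GCGTG and 43.2% held either. The window of the first HK2 start held 3 matches, 229, 55 and 48 bases before that start, of which only the first lies in the printed stretch and the other 2 lie within HK2-201, and 7.76% of all windows held at least 3. The window of the intronic HK2 start held 6 matches, among them both strands of 2 CACGTG sequences, and 0.646% of all windows held at least 6. In the window nearest to the main transcript, PFKL, GPI, HK1 and ADPGK had 1 match each and PFKP had 0. The GPI window belongs to a RefSeq start 387 bases before the start of GPI-205, and the bases between were not searched. The HK1 match lies within HK1-202, past its start. All PFKP windows lie past the start of PFKP-203, so that the bases before that start were not searched. Of the 3 windows at other PFKP starts, 1 held 3 matches and 1 held 1, at RefSeq starts 37089 and 1669 bases past the start of PFKP-203. The nearest PFKM window, at a RefSeq start 3417 bases past the start of PFKM-203, held 0, while 1 of the other 6 PFKM windows held 1. The bases just before the start of PFKM-203 were thus not searched. The HKDC1 window held 0, as did the other 6 windows of HK1. A match is a run of letters and was not tested as a binding site.

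Depth, recovered from the steps of the values, was 44.0 to 50.7 M reads in the hypoxic and 50.4 to 50.9 M in the normoxic libraries. The mesenchymal marker vimentin (VIM) was at 6307 to 7439 RPKM (reads per kilobase of transcript, scaled to library depth) in hypoxia and 4741 to 4901 RPKM in normoxia. All 8 epithelial markers examined, EPCAM, CDH1 and 6 keratins, were near 0, with a summed level of 0.112 to 0.253 RPKM in hypoxia and 0.0860 to 0.255 RPKM in normoxia, so that the labelled mammary origin cannot be read from these markers. The estrogen receptor ESR1 reached at most 0.209 RPKM, and ERBB2 was at 20.2 to 23.7 RPKM in hypoxia and 21.2 to 21.8 RPKM in normoxia. The macrophage and lysosome gene CD68 was at 73.5 to 80.7 RPKM in hypoxia and 45.8 to 48.3 RPKM in normoxia, while the leukocyte gene PTPRC was listed at 0 in all hypoxic libraries and at no more than 0.00826 RPKM in normoxia. The glucose transporter SLC2A1, an established hypoxia target, was at 40.3 to 53.4 RPKM in hypoxia and 5.24 to 5.65 RPKM in normoxia. It differed most among the hypoxia markers examined. VEGFA averaged 22.2 RPKM in hypoxia and 10.1 RPKM in normoxia, ADM 177 and 73.1 RPKM, and NDRG1 6.31 and 1.17 RPKM. CA9 was near 0 in both groups, at no more than 0.0639 RPKM, and was too low to be tested.

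Messenger RNA of HK2, HK1, GPI, PFKL and PFKP was higher in hypoxia, and HK2 differed most, with a mean level 4.12 times that of normoxia against 1.61 to 1.80 times for the other 4 genes. ADPGK and PFKM did not pass the test, and HKDC1 was at the detection floor. Levels are RPKM summed over the transcripts of a gene, ± is the SD over 3 libraries, and a positive log2 fold change means more RNA in hypoxia. Fold changes were taken on log2(RPKM + 1), which understates those of low genes. A gene was tested if it had more than 1 RPKM in at least 3 libraries, with limma on 11884 genes, Benjamini-Hochberg adjustment and a threshold of 0.05. Of the 8 genes 7 were tested, all of them above 1 RPKM in both groups, and 5 were raised, where 12.4% of all tested genes were raised. None was lowered, where 24.4% of all tested genes were, and the counts at that threshold over all genes were 1478 raised and 2901 lowered (2040 raised and 1403 lowered with median-of-ratios scaling). The median log2 fold change was 0.74 over the 7 genes and -0.085 over all tested genes. In these bulk libraries a change in the share of expressing cells and a change in RNA per cell cannot be told apart.

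**Figure D1:**
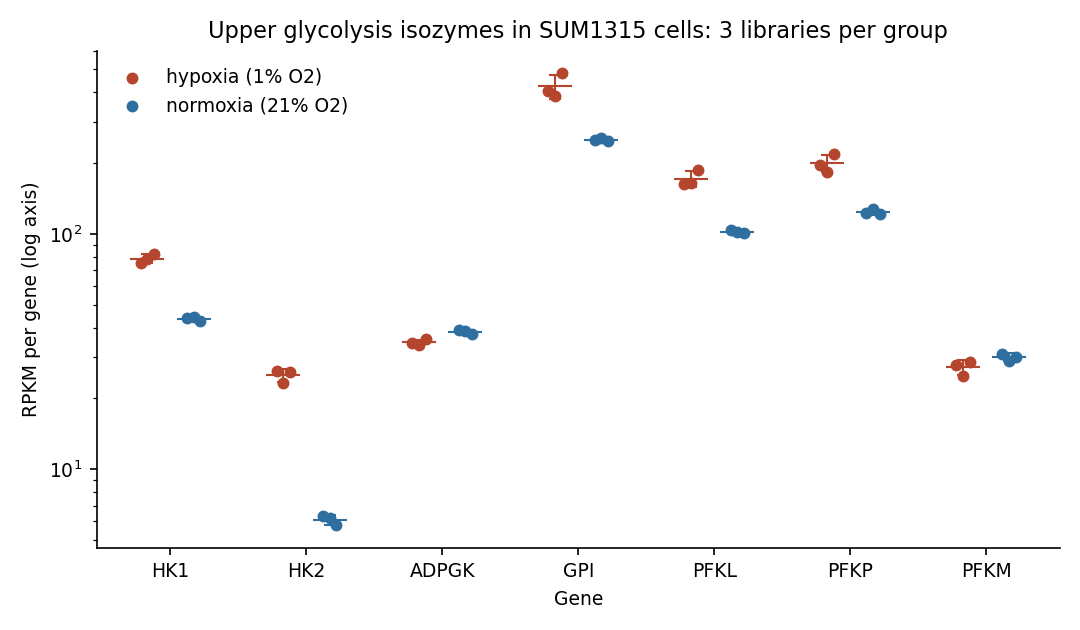
Level of each tested isozyme gene in RPKM on a log axis, hypoxia (red) left of normoxia (blue). Points are libraries, and the bar with whiskers is the mean ± SD of 3 libraries. The groups do not overlap, with hypoxia higher for 5 genes (as for 16.4% of all tested genes) and lower for ADPGK and PFKM (as for 35.6%), and the gap is widest for HK2 (25.1 RPKM in hypoxia, 6.09 RPKM in normoxia).

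HK2 (ENSG00000159399, chromosome 2, 74833981 to 74893359, GRCh38, plus strand) had 26.1, 23.3 and 25.8 RPKM in hypoxia, against 6.30, 6.18 and 5.78 RPKM in normoxia. Each hypoxic library was thus far above each normoxic one, and the spread within a group was small beside the gap. HK2 averaged 25.1 ± 1.52 RPKM in hypoxia and 6.09 ± 0.271 RPKM in normoxia, a log2 fold change of 1.88 (SE 0.07, 95% interval 1.72 to 2.04, limma adjusted p = 1.77e-08). In the order of log2 fold changes it stood 28th of 11884 tested genes. Between 6541 and 7608 estimated reads per hypoxic library and 1678 to 1845 per normoxic library lie behind these values, so that counting error is small.

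HK1 (ENSG00000156515, chromosome 10, 69269984 to 69401884, plus strand) had 75.3, 78.0 and 82.3 RPKM in hypoxia, against 43.7, 44.3 and 42.8 RPKM in normoxia. It averaged 78.5 ± 3.50 RPKM in hypoxia and 43.6 ± 0.738 RPKM in normoxia, 0.83 on the log2 scale (SE 0.06, limma adjusted p = 2.34e-06). HK1 therefore rose as well, and it was the more abundant hexokinase per length in all 6 libraries. The ratio of HK1 to HK2 was 2.89, 3.34 and 3.19 in hypoxia, against 6.93, 7.17 and 7.40 in normoxia. The ratio was lower in every hypoxic library than in every normoxic one (two-sided exact permutation p = 0.10, the lowest p possible with 3 libraries a group).

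HKDC1, a hexokinase-like protein with low activity that neighbours HK1 on chromosome 10 (69220303 to 69267559, plus strand), was listed at 0 in all hypoxic libraries. In normoxia it was listed at 0.00538, 0 and 0.00542 RPKM, about 1.01 estimated reads in each of 2 libraries. At the lowest depth 3 reads would be worth 0.0185 RPKM, so that no difference between the groups was detectable. HK3, a hexokinase found mainly in blood cells, was also too low to be tested and reached at most 0.143 RPKM or 7 estimated reads.

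ADPGK (ENSG00000159322, chromosome 15, 72751369 to 72785846, minus strand) phosphorylates glucose with ADP in place of ATP. It had 34.5, 33.8 and 35.6 RPKM in hypoxia, against 39.1, 38.6 and 37.5 RPKM in normoxia. The groups did not overlap, with hypoxia lower, as was the case for 35.6% of all tested genes. The log2 fold change of -0.14 (SE 0.06, 95% interval -0.27 to -0.02) did not pass the test (limma adjusted p = 0.0665; 0.0130 to 0.443 over 16 other settings). It passed once the GC trend was removed (0.0219), with libraries rescaled to equal sums (0.0130), without hypoxia replicate 3 (0.0424) and without the filter on low values (0.0472).

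GPI (ENSG00000105220, chromosome 19, 34359480 to 34402413, plus strand) was the most abundant of the 8 genes per length. It had 406, 386 and 481 RPKM in hypoxia, against 250, 255 and 247 RPKM in normoxia. Hypoxia replicate 3 stood above the other 2 hypoxic libraries, and all 3 were above normoxia. GPI averaged 424 ± 50.1 RPKM in hypoxia and 251 ± 3.79 RPKM in normoxia, 0.75 on the log2 scale (SE 0.08, limma adjusted p = 5.88e-05), and the value was 0.66 to 0.82 when any 1 library was left out.

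Of the phosphofructokinase genes, PFKP and PFKL rose and PFKM did not pass. PFKP (ENSG00000067057, chromosome 10, 3066333 to 3137712, plus strand) had 197, 184 and 218 RPKM in hypoxia, against 123, 128 and 121 RPKM in normoxia. It averaged 200 ± 16.9 RPKM in hypoxia and 124 ± 3.53 RPKM in normoxia, 0.68 on the log2 scale (SE 0.07, limma adjusted p = 4.34e-05). PFKL (ENSG00000141959, chromosome 21, 44300051 to 44327376, plus strand) had 163, 165 and 187 RPKM in hypoxia, against 104, 102 and 101 RPKM in normoxia. It averaged 172 ± 13.5 RPKM in hypoxia and 102 ± 1.63 RPKM in normoxia, 0.74 on the log2 scale (SE 0.06, limma adjusted p = 1.55e-05). For both genes hypoxia replicate 3 was the highest library, and every hypoxic value lay above every normoxic one, as for 16.4% of all tested genes.

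PFKM (ENSG00000152556, chromosome 12, 48105139 to 48146404, plus strand) had 27.8, 25.0 and 28.6 RPKM in hypoxia, against 31.0, 28.7 and 30.1 RPKM in normoxia. The highest hypoxic library lay just under the lowest normoxic one, and 35.6% of all tested genes did not overlap in this direction. The log2 fold change was -0.14 (SE 0.07, 95% interval -0.29 to 0.01, limma adjusted p = 0.133; 0.0397 to 0.579 over 16 other settings), and it passed with libraries rescaled to equal sums (0.0397) and on estimated reads (0.0498). PFKM shares 628 exon bases with SENP1 on the other strand (mean 6.16 RPKM), and the libraries did not mark strand, so that some reads may be exchanged. The order of levels per length was the same in both groups for the 4 most abundant genes, GPI, PFKP, PFKL and HK1, and PFKP exceeded PFKL in each library although their ranges overlapped in hypoxia (184 to 218 RPKM for PFKP, 163 to 187 RPKM for PFKL). HK2 was the lowest of the 7 tested genes in every library of both groups. In hypoxia its range, 23.3 to 26.1 RPKM, overlapped with that of PFKM, 25.0 to 28.6 RPKM.

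**Figure D2:**
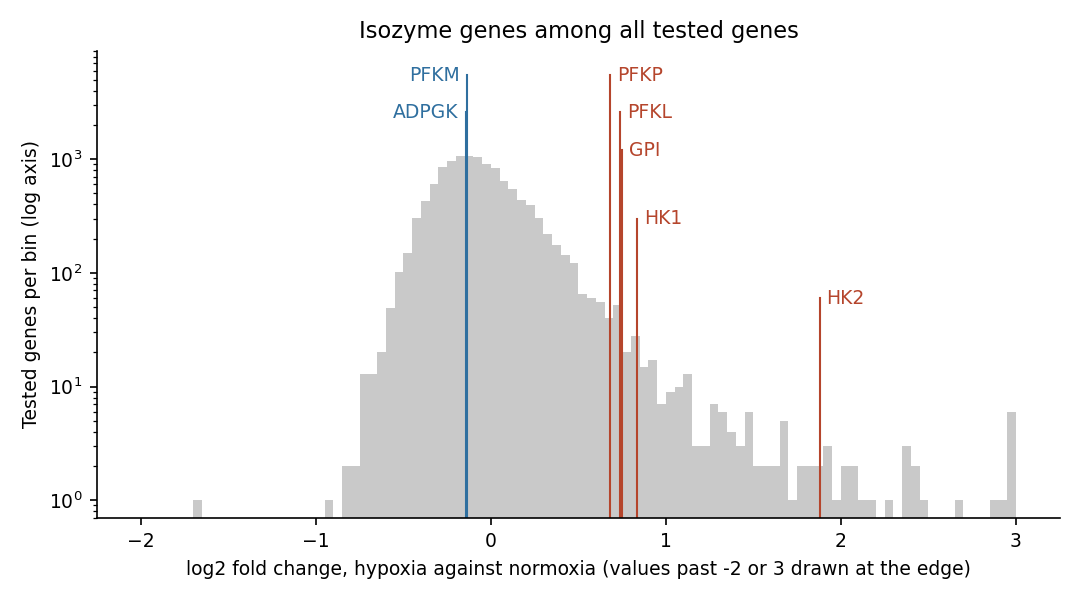
Histogram of log2 fold changes of all 11884 tested genes, hypoxia against normoxia, with the number of genes per bin on a log axis and the 7 tested isozyme genes as vertical lines (red passed the test, blue did not) whose height has no meaning. PFKP, PFKL, GPI and HK1 lie between 0.68 and 0.83 and HK2 at 1.88, while PFKM and ADPGK, both at -0.14, lie in the bulk of genes.

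The make-up of both enzyme families differed between the groups. A share is the percentage of the summed RPKM of a family, which does not depend on how libraries are scaled. HK2 made up 25.6, 23.0 and 23.9% of hexokinase RNA in hypoxia, against 12.6, 12.2 and 11.9% in normoxia. This is a difference of 12 percentage points, with 24.2 ± 1.34% in hypoxia and 12.2 ± 0.342% in normoxia. HK1 made up 75.7 ± 1.45% in hypoxia and 87.5 ± 0.434% in normoxia, so that HK1 remained the main isozyme at both oxygen levels. HK3 and HKDC1 were each at no more than 0.187% in any library.

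Among phosphofructokinases PFKM made up 7.16, 6.69 and 6.6% in hypoxia, against 12, 11.1 and 11.9% in normoxia. The PFKM share was 6.82 ± 0.301% in hypoxia and 11.7 ± 0.521% in normoxia, a difference of -4.85 points. PFKL made up 43.1 ± 0.953% in hypoxia and 39.9 ± 0.378% in normoxia, and the groups did not overlap. PFKP made up 50.8, 49.3 and 50.2% in hypoxia, against 47.7, 49.4 and 48.1% in normoxia, and here hypoxia replicate 2 lay below normoxia replicate 2. Of the 5 shares compared, those of HK1, HK2, PFKL and PFKM gave the lowest p possible (two-sided exact permutation p = 0.10, 0.125 adjusted over the 5), and PFKP gave p = 0.200, so that none could pass 0.05. The ratio of PFKP to PFKL was 1.16 ± 0.0423 in hypoxia and 1.21 ± 0.0338 in normoxia (exact permutation p = 0.300).

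**Figure D3:**
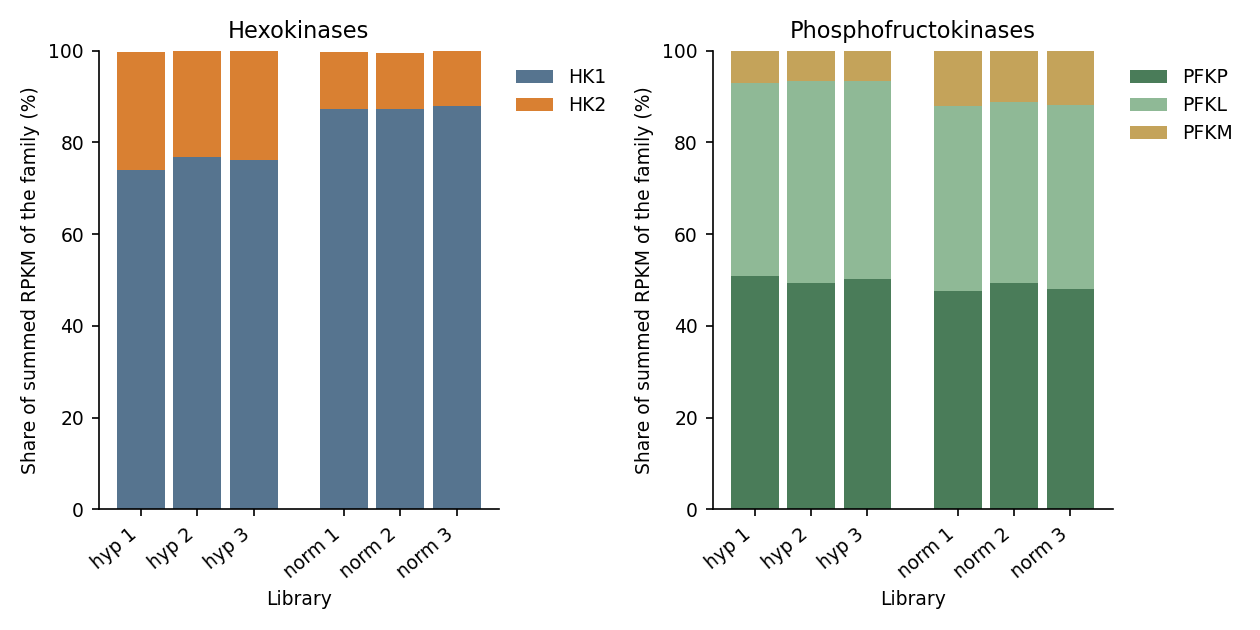
Share of each isozyme in the summed RPKM of its family in percent, 1 bar per library, hypoxia (hyp) left of normoxia (norm). The HK2 part of the hexokinase bars is 23.0 to 25.6% in hypoxia and 11.9 to 12.6% in normoxia, and the PFKM part of the phosphofructokinase bars is 6.6 to 7.16% in hypoxia and 11.1 to 12% in normoxia.

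Summed over isozymes, hexokinase RNA was at 102, 101 and 108 RPKM in hypoxia, against 50.1, 50.6 and 48.6 RPKM in normoxia. Phosphofructokinase RNA was at 388, 374 and 434 RPKM in hypoxia, against 258, 259 and 252 RPKM in normoxia. The ratio of means was 2.08 for hexokinases and 1.55 for phosphofructokinases. Phosphofructokinase RNA thus exceeded hexokinase RNA per length by 3.84 ± 0.163 times in hypoxia and 5.15 ± 0.0321 times in normoxia.

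The transcript values show which messages carry these differences. HK1-202, of 3605 bases, held 99 ± 0.211% of HK1 RPKM in hypoxia and 99.1 ± 0.239% in normoxia. HK2-201 held 98.4 ± 0.414% of HK2 in hypoxia and 96.0 ± 0.763% in normoxia, and its own log2 fold change was 1.91 (SE 0.08, limma adjusted p = 2.71e-05 over 26784 transcripts). PFKP-203 held 96.8 ± 0.497% of PFKP in hypoxia and 96.9 ± 0.642% in normoxia, and PFKL-201 held 91.3 ± 0.668% of PFKL in hypoxia and 92.6 ± 1.34% in normoxia. For these 4 genes, then, 1 protein-coding message stands for the gene at both oxygen levels.

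GPI was split over several messages. GPI-205 held 26.7 ± 0.536% in hypoxia and 26.5 ± 0.566% in normoxia, and GPI-208 held 22.8 ± 1.63% in hypoxia and 22.1 ± 1.12% in normoxia. GPI-222, annotated as a target of nonsense-mediated decay, held 19.2 ± 0.816% in hypoxia and 20.1 ± 1.62% in normoxia. GPI-205 (adjusted p = 0.00604), GPI-208 (0.00154), GPI-222 (0.00482) and GPI-201 (0.00999) were all raised, with log2 fold changes of 0.75, 0.79, 0.68 and 0.80. The GPI-201 call was lost without normoxia replicate 2 (0.0509) or 3 (0.0546). The short models GPI-211 and GPI-209, of 571 and 582 bases, varied most: GPI-211 had 51.3, 26.5 and 67.7 RPKM in hypoxia, against 25.3, 32.7 and 25.3 RPKM in normoxia, and did not pass (adjusted p = 0.194). Both passed without hypoxia replicate 2 (0.0171 and 0.0166). GPI-206 was at 2.25, 1.78 and 2.48 RPKM in hypoxia, against 0.240, 0.107 and 0.189 RPKM in normoxia, and entered the test only through its hypoxic values.

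PFKM and ADPGK had no transcript that passed. PFKM-203 had 9.54, 10.0 and 11.4 RPKM in hypoxia, against 12.2, 12.7 and 12.8 RPKM in normoxia (log2 fold change -0.27, SE 0.09, limma adjusted p = 0.108). PFKM-206, annotated with a retained intron, held 33.5 ± 4.06% of PFKM RPKM in hypoxia and 33.2 ± 2.39% in normoxia, so that about as much of the PFKM value comes from this model at either oxygen level. ADPGK-201 was at 14.4 ± 0.221 RPKM in hypoxia and 16.5 ± 0.997 RPKM in normoxia (adjusted p = 0.168). Over all 8 genes 30 transcripts were tested and 10 were raised, where 3.50% of all tested transcripts were raised, and 0 were lowered, where 3.22% were. Of the 30, 4 were above 1 RPKM in hypoxia only, so that their groups could not overlap, and 8 of the other 26 were raised. Among those 4, GPI-206 (adjusted p = 0.00192) and PFKL-205 (0.0478) passed the limma test, while PFKL-210 (0.0622) and PFKL-207 (0.0896) did not. How reads were divided between transcripts of 1 gene is not given in the sources used here, which limits shares within a gene.

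**Figure D4:**
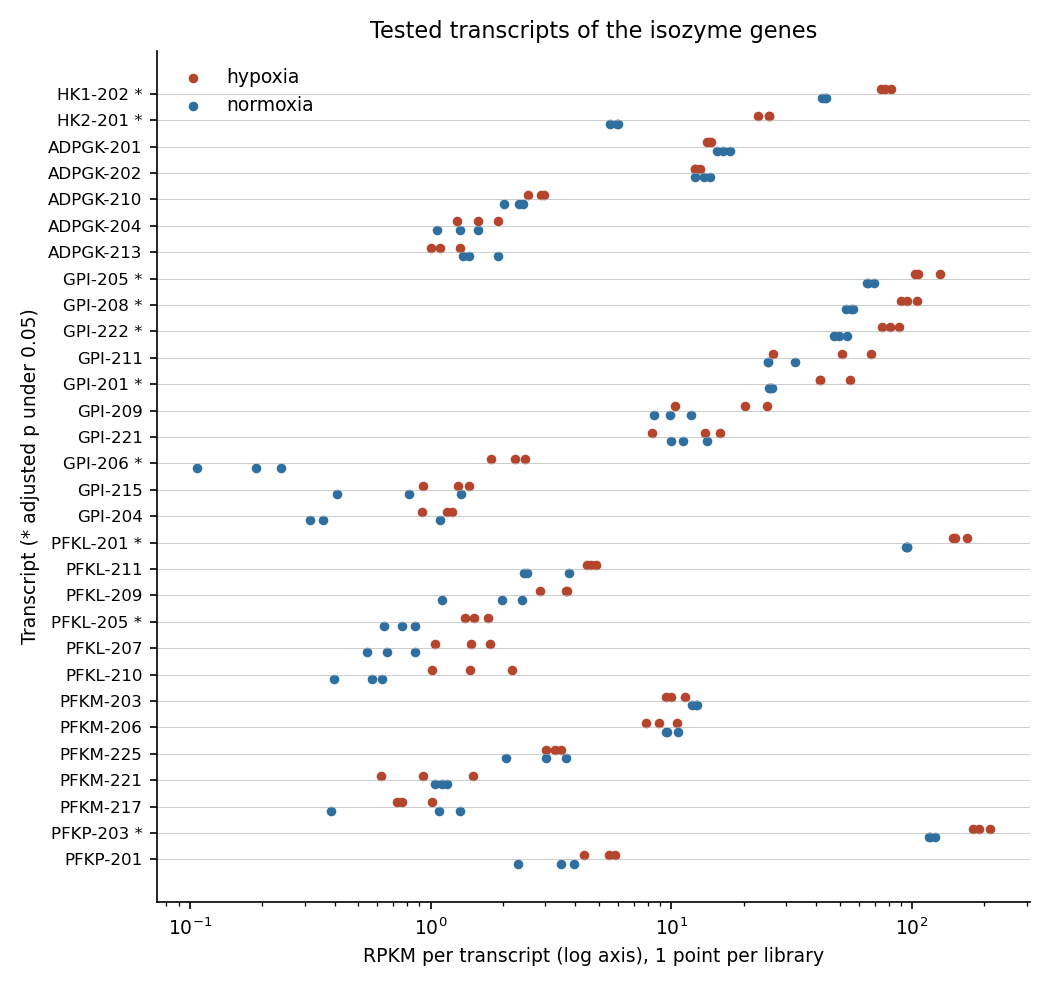
RPKM of the 30 tested transcripts of the isozyme genes on a log axis, 1 point per library, hypoxia (red) above normoxia (blue), with an asterisk for an adjusted p under 0.05. HK1-202, HK2-201, PFKL-201 and PFKP-203 separate cleanly, while GPI-211 and GPI-209 overlap between the groups as does PFKM-206.

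The enzymes around these steps were described from 3 lists. In lower glycolysis, from aldolase to pyruvate kinase, 10 of 13 listed genes were tested and 10 were raised, where 12.4% of all tested genes were, with a median log2 fold change of 0.95 against -0.085 over all tested genes. PGK1, which makes the first ATP of the pathway, had 460, 477 and 484 RPKM in hypoxia, against 114, 110 and 119 RPKM in normoxia (log2 fold change 2.04, SE 0.06, limma adjusted p = 1.21e-09). The enolase ENO2 averaged 239 ± 29.3 RPKM in hypoxia and 62.1 ± 2.33 RPKM in normoxia. The aldolase ALDOC averaged 6.23 ± 0.617 RPKM in hypoxia and 0.947 ± 0.175 RPKM in normoxia, with 1 normoxic library above the minimum for testing. The log2 fold change of HK2 (1.88) was next to that of ALDOC (1.89) and ENO2 (1.92). With a pseudocount of 0.1 the values were 2.02 for HK2, 2.61 for ALDOC and 1.94 for ENO2, so that the nearness to ALDOC depends on the pseudocount. Those of HK1, GPI, PFKL and PFKP lay within the range of the list, 0.46 for PKM to 2.04 for PGK1.

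Of 13 regulators, further hexokinases and outer mitochondrial channels, 7 were tested, 2 were raised and 1 was lowered, where 12.4% of all tested genes were raised and 24.4% lowered. PFKFB4 and PFKFB3 make fructose 2,6-bisphosphate, the strongest activator of phosphofructokinase, and rose by log2 fold changes of 2.68 and 1.18 (adjusted p = 1.40e-09 and 1.31e-05). PFKFB3 averaged 35.7 ± 5.24 RPKM in hypoxia and 15.2 ± 1.36 RPKM in normoxia. PFKFB2 fell to 2.30 ± 0.228 RPKM in hypoxia, against 3.25 ± 0.287 RPKM in normoxia (adjusted p = 0.0127), a call lost without normoxia replicate 1 (0.0514) or 2 (0.0574) and without the filter on low values (0.0641). The channels VDAC1, VDAC2 and VDAC3, to which mitochondrial hexokinase binds, had log2 fold changes of -0.01, -0.12 and -0.11 and did not pass (adjusted p = 0.944, 0.109 and 0.214).

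Of 20 enzymes on the branches from glucose 6-phosphate and fructose 6-phosphate, all were tested, 5 were raised and 6 lowered. Their median log2 fold change was -0.04, and 12.4% of all tested genes were raised and 24.4% lowered. The lowered count is near that background. The raised ones were led by glycogen synthase GYS1 (34.9 ± 4.42 RPKM in hypoxia, 16.6 ± 0.107 RPKM in normoxia), phosphoglucomutase PGM1 (73.6 ± 3.11 RPKM in hypoxia, 39.3 ± 0.753 RPKM in normoxia) and the mannose phosphate isomerase MPI (103 ± 11.4 RPKM in hypoxia, 60.7 ± 3.6 RPKM in normoxia). Their log2 fold changes were 1.02, 0.89 and 0.74. The lowered ones were led by RPIA of the pentose phosphate pathway (log2 fold change -0.43, limma adjusted p = 0.00117), by GNPNAT1 of the hexosamine pathway (-0.27, adjusted p = 0.0321) and by TALDO1 of the pentose phosphate pathway (-0.22, adjusted p = 0.0133). The GNPNAT1 call was lost in 9 of 16 other settings, among them the removal of any 1 normoxic library (0.0655, 0.0862 and 0.0985), of hypoxia replicate 1 (0.0664) or of hypoxia replicate 3 (0.0690). The TALDO1 call was lost in 4, among them leaving out normoxia replicate 2 (0.0618) or 3 (0.0629). Of the 20 enzymes, 1 was lowered under median-of-ratios scaling, and 2, 1 and 1 without normoxia replicate 1, 2 or 3.

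**Figure D5:**
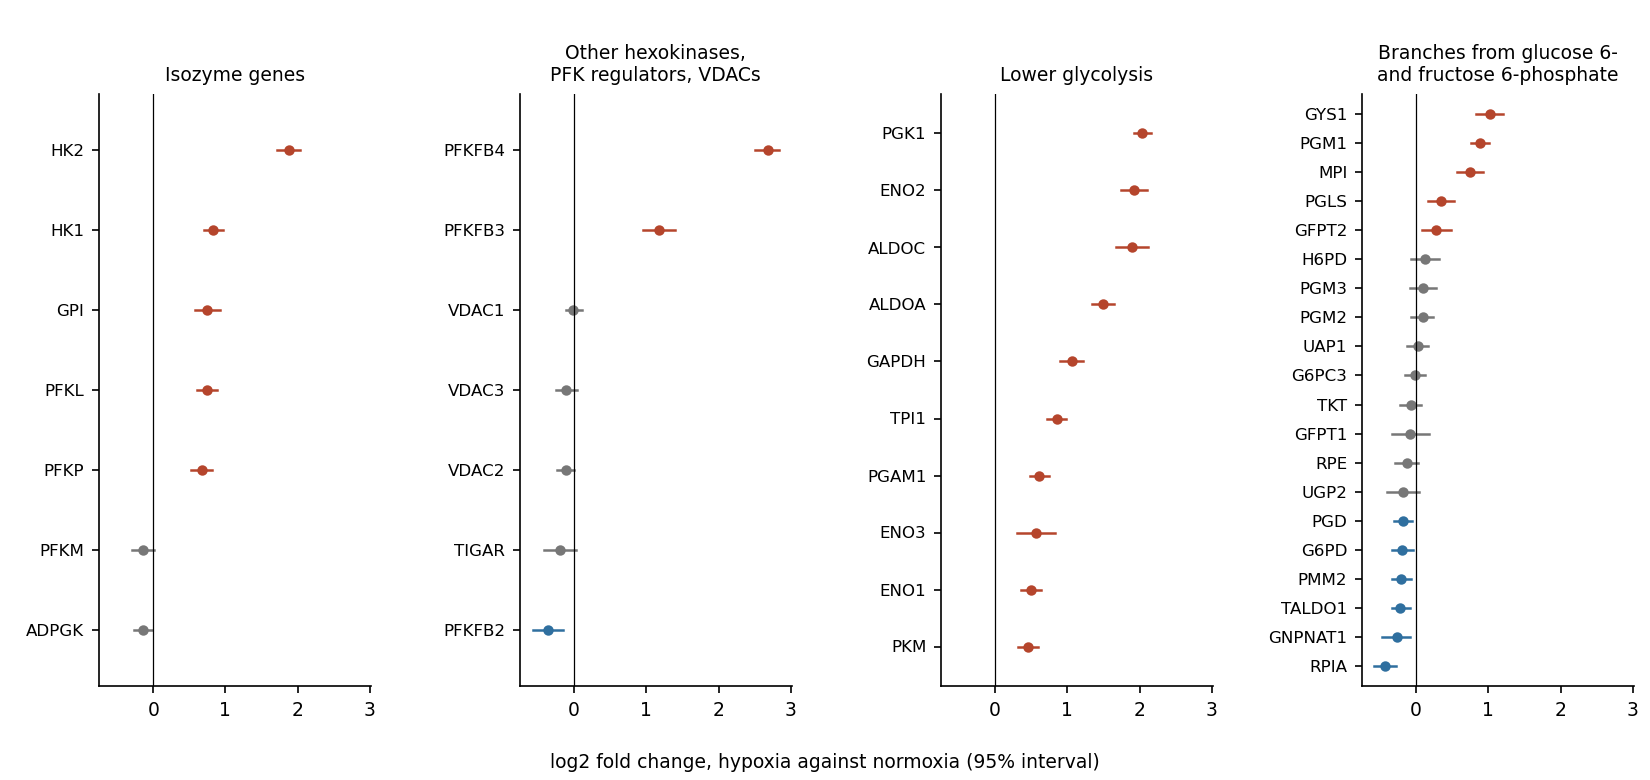
Log2 fold change, hypoxia against normoxia, with its 95% interval for the tested genes of each list, red for raised, blue for lowered and grey for an adjusted p of 0.05 or more. All 10 lower glycolysis genes and 5 of 7 isozyme genes are raised, while the branch enzymes go both ways.

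The genes nearest to HK2 in pattern, by the root mean square difference of log2(RPKM + 1) over the 6 libraries after centring on the normoxic mean, were ENO2 (0.077), the collagen prolyl hydroxylase subunit P4HA2 (0.078) and the small GTPase RAB20 (0.118). P4HA2 averaged 43.4 ± 2.47 RPKM in hypoxia and 11.6 ± 0.352 RPKM in normoxia. RAB20 averaged 6.62 ± 0.576 RPKM in hypoxia and 1.18 ± 0.122 RPKM in normoxia, and with a pseudocount of 0.1 its log2 fold change was 2.39 against 2.02 for HK2. Those nearest to PFKP were the potassium channel subunit KCNS1 (0.033), the cytokine IL6 (0.038) and the galactosyltransferase B3GALT4 (0.040), all far less abundant than PFKP. IL6 averaged 2.43 ± 0.192 RPKM in hypoxia and 1.13 ± 0.0875 RPKM in normoxia. B3GALT4 was below 1 RPKM in all normoxic libraries and entered the test only through its hypoxic values. The likeness to PFKP depends on the pseudocount: at 0.1 the log2 fold changes were 0.81 for KCNS1, 1.05 for IL6 and 1.17 for B3GALT4, against 0.68 for PFKP.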

How the data were processed

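The authors deposited 1 table with a value for each of 165956 Ensembl transcripts in 6 libraries. The deposited values were taken as RPKM, a unit inferred here because the file header does not name one. For genes with 1 transcript, 79.4% to 80.8% of low values times transcript length lay within 0.1 of a whole multiple (up to 20) of a step per library, from which depth was recovered. Per the submitters' processing notes, Trimmomatic, HISAT2, SAMtools and Partek were used with GRCh38 or hg38, without versions. Per the labels' protocols, the NEBNext Ultra kit was used on total RNA, and this kit keeps no strand information. Neither the annotation release nor how rRNA was handled is stated in the sources used.

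Identifiers were looked up in GENCODE 29. It held 140004 of them (84.4%), with 96.3% to 96.6% of the RPKM, and values were then summed per gene. Coordinates of genes are from GENCODE 29 on GRCh38. Summing RPKM weights short transcripts more than reads would. Groups were compared with limma 3.58.1 in R 4.3.3, using log2(RPKM + 1), its intensity trend and no replicate block, for genes or transcripts that exceeded 1 RPKM in 3 or more libraries. Shares were compared by exact permutation tests (scipy 1.17.1). The fit was tested on simulated data with known changes. The simulated libraries were independent, so that this cannot show whether the real replicates are. Between replicates the mean chi-square per gene on estimated reads was 6.69 to 25.73, so that no 2 libraries agreed within counting noise. Their number, not depth, limits precision, and counting error is the only error that depth covers.

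The members, lists and tests were chosen with earlier results of these data known. Named genes were the 8 members with HK3, tested transcripts of members, up to 3 raised and 3 lowered genes with the largest and smallest log2 fold changes per list, and the 3 genes nearest in pattern to HK2 and to PFKP. The VDAC genes, PKM and the markers were named outside this rule, with their values known. FBP1 of the lists, and PGR, CD3E, CDH5 and ADIPOQ of the markers, were not analysed here, and 1 listed gene is not reported here. Of the other markers, the endothelial genes PECAM1 and VWF and the adipocyte gene PLIN1 stayed at or below 0.172 RPKM in every library, and LYZ at or below 0.0655 RPKM. Alternatives were 3 other scalings, 2 other filters, a pseudocount of 0.1, a replicate block, protein-coding transcripts only, estimated reads and leaving out each library. Removal of each library's loess trend (span 0.5) on GC content was added after seeing the data.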

Additional observations from a re-analysis of the deposited data

How the results depend on the processing

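The 5 raised isozyme genes were raised in all 16 other settings, with log2 fold changes of 1.82 to 2.02 for HK2, 0.77 to 0.92 for HK1, 0.66 to 0.84 for GPI, 0.58 to 0.82 for PFKL and 0.58 to 0.76 for PFKP. The count of lowered isozyme genes, 0 as reported, was 2 with libraries rescaled to equal sums, 1 with no filter, on estimated reads and with the GC trend removed, and 0 to 1 when 1 library was left out (1 without hypoxia replicate 3). Over all genes, lowered ones numbered 1403 with median-of-ratios scaling (2040 raised), 1665 with upper-quartile scaling (1825 raised), 1367 with no filter, 4219 with equal sums (1176 raised), and 1522 to 2852 with 1 library left out (1754, 1621 and 1522 without normoxia replicate 1, 2 or 3). Among regulators 3 were lowered with equal sums, 0 with no filter or a minimum of 5 RPKM, and 0 to 1 with 1 library left out. Among branch enzymes 3 were raised with no filter, 1 was lowered with median-of-ratios scaling, and 1 to 6 with 1 library left out (2, 1 and 1 without normoxia replicate 1, 2 or 3). The HK2 share difference was 15.6 points on estimated reads, which weight long transcripts more (HK1 -15.6), and 11.2 to 12.5 with 1 library left out. With protein-coding transcripts only, the share difference was 2.15 points for PFKL and -3.44 for PFKM, and on estimated reads -5.30 for PFKM. For PFKL, PFKM and PFKP it was 2.69 to 3.65, -5.15 to -4.68 and 1.37 to 2.20 points with 1 library left out. Where no cause is given, the cause was not tested.

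Of 377 alternative values for the log2 fold changes of 24 named genes, 355 stayed on their side of the threshold, 16 lost the call, 6 gained it and 0 changed sign. Of 279 for 30 transcripts, 8 lost the call, 2 gained it and 5 changed sign: PFKM-221 (0.06 without hypoxia replicate 1), PFKM-225 (-0.02 without normoxia replicate 3) and GPI-221 (-0.01 and -0.11 without hypoxia replicate 2 or 3, -0.03 without normoxia replicate 3). With 1 library left out they ranged over -0.25 to 0.06, -0.02 to 0.28 and -0.11 to 0.33 in that order, and none passed the test as reported. The PFKL-205 call was lost in 6 settings, with adjusted p of 0.0567 to 0.165.

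Same-numbered libraries did not deviate together (r of deviations 0.09, 0.03 and -0.23 for numbers 1, 2 and 3), and not every library correlated best with its own number. With the replicate number as a block 5 isozyme genes were raised and 0 lowered (1465 and 2664 over all genes), and the share differences were the same, 12 points for HK2 and -4.85 for PFKM. The PFKL-205 call was lost with the block (adjusted p = 0.112).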
